A study of Mus musculus with 9 samples.

Results

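The BCL-2 family of resting dendritic cells (DC) was examined through 10 genes picked by name from the count table: the pro-survival genes Bcl2, Bcl2l1 and Mcl1, the effector genes Bax and Bak1, and the BH3-only genes Bcl2l11, Bid, Bbc3, Pmaip1 and Bmf. Each name matched a row, so the members were 10 of 39179 listed genes, and all 10 were among the 13819 genes that passed the filter on low counts. The libraries came from the spleens of C57BL/6J mice at steady state, with no ligand given, and held sorted CD8pos cDC1, CD8neg cDC2 or pDC, with 3 libraries per subset. Each library was made from cells pooled from 15 to 17 mice, so the spread between libraries is a spread between pools. The wider study asked how DC die after STING is triggered and whether the mitochondrial route of apoptosis takes part, and the libraries here describe what the unstimulated subsets express of that route. CD8pos cDC1 and CD8neg cDC2 are the conventional DC of the spleen, which present antigen to T cells, and pDC are plasmacytoid DC, which are known for type I interferon.

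The BCL-2 family decides whether the outer mitochondrial membrane is breached during apoptosis. BAX and BAK, encoded by Bax and Bak1, form the pores. BCL-2, BCL-XL and MCL-1, encoded by Bcl2, Bcl2l1 and Mcl1, hold the effectors and the BH3-only proteins in check. BIM, BID, PUMA, NOXA and BMF, encoded by Bcl2l11, Bid, Bbc3, Pmaip1 and Bmf, are the sensors that engage the pro-survival proteins through a short helix, the BH3 domain. Of BCL-2, BCL-XL and MCL-1, NOXA binds mainly MCL-1, whereas BIM and PUMA bind all of them. Breach of the membrane frees cytochrome c, which assembles the apoptosome with APAF1 and caspase-9.

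The feature that joins pro-survival, effector and BH3-only members is this BH3 stretch, and the coding bases of 9 members are shown here because they are what the family has in common beyond its name. Capitals mark the codon of the leucine that is shared by BH3 domains and the codons of the glycine or alanine and the aspartate that follow 3 residues later. The bases were read from the GENCODE M21 transcripts of the principal coding transcript, 5′ to 3′ on the coding strand, and positions are on GRCm38, which the labels call mm10.
Bcl2 (chr1:106538178-106714274, minus strand, from residue 94 of 236): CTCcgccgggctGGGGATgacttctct
Bcl2l1 (chr2:152780668-152831728, minus strand, from residue 90 of 233): CTGagagaggcaGGCGATgagtttgaa
Mcl1 (chr3:95658788-95663176, plus strand, from residue 194 of 331): CTGcggcgcgtgGGCGACggcgtgcag
Bax (chr7:45461697-45466898, minus strand, from residue 63 of 192): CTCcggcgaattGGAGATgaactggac
Bak1 (chr17:27019810-27029009, minus strand, from residue 76 of 209): CTTgctctcatcGGAGATgatattaac
Bcl2l11 (chr2:128126038-128162547, plus strand, from residue 150 of 196): CTGcggcggatcGGAGACgagttcaac
Bid (chr6:120891930-120916853, minus strand, from residue 90 of 195): CTCgcccaaataGGCGATgagatggac
Bbc3 (chr7:16308393-16318205, plus strand, from residue 141 of 193): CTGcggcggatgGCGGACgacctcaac
Bmf (chr2:118528757-118549687, minus strand, from residue 224 of 271): CTTcagtgtattGCAGACcagttccat
The coordinates are those of the whole gene. Bbc3 and Bmf carry an alanine codon where the other 7 carry glycine. The pattern of a leucine, 3 residues, a glycine or alanine and an aspartate is loose, since it occurred in the coding region of 5160 of 21866 protein-coding genes (23.6%), and each of the 9 members held it once. It was searched on the coding strand in frame, and a match is a description and not a test of binding.

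The subset labels were checked against marker genes. Xcr1 averaged 936, 49.7 and 4.64 CPM (counts per 1000000 counts, with library sizes scaled by edgeR's TMM factors) in cDC1, cDC2 and pDC, Itgam 11.6, 235 and 11.3 CPM, and Siglech 27.1, 17.0 and 4752 CPM. These markers followed the labels. The summed 6 cDC1 markers were highest in cDC1 (3613 to 3984 CPM) and the 6 pDC markers in pDC (11828 to 12663 CPM). The sum of the 5 cDC2 markers did not set cDC2 apart, at 1760 to 1912 CPM in cDC2 and 1838 to 2003 CPM in pDC. Clec9a, usually given as a cDC1 marker, was also at 252 CPM in pDC, and Cd8a at 338 CPM. Cd4, which marks many cDC2, was at 1369 CPM in pDC, and Sirpa, of the cDC2 list, at 520 CPM. Library totals ran from 15806597 to 32453789 counts, and replicate 3 had the lowest total in each subset. A floor of 3 counts corresponded to 0.0908 to 0.203 CPM. Because the libraries are bulk RNA, fewer cells that express a gene and less RNA per cell cannot be told apart.

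Across the subsets, 8 of the 10 members differed in a joint test, against 56% of all tested genes, and the members that differed were mostly lowest in pDC. The joint count ran from 6 to 9 over the alternatives, where 36.4% to 71.7% of all genes were called. The count of 6 came where 48.5% were called, and the counts of 9 where 58.1% to 71.7% were. Bcl2 dropped out without cDC1 replicate 1 or 2, cDC2 replicate 2 or 3, or pDC replicate 1 or 2, and with no filter, and Bcl2l11 dropped out without cDC1 replicate 1. In pDC against cDC1, 7 members were called and all 7 were lower in pDC: Mcl1, Bax, Bak1, Bcl2l11, Bid, Pmaip1 and Bmf. Of all tested genes 48.6% were called in that comparison, 24.4% lower and 24.3% higher in pDC. In pDC against cDC2, 6 members were called, all lower in pDC (Bcl2, Mcl1, Bax, Bak1, Pmaip1 and Bmf), where 45.8% of all genes were called, 23.3% lower and 22.5% higher. In cDC2 against cDC1 only Pmaip1 was called higher and only Bid lower. There 24.4% of all genes were called, 12.7% higher and 11.7% lower in cDC2. With the replicate number as a block, Bcl2, Bak1 and Bmf passed there as well, for 5 members, where 35.6% of all genes were called. The same block called 8 members in pDC against cDC1 and 6 in pDC against cDC2, where 58.6% and 55.5% were called. Calls are edgeR quasi-likelihood tests on the 9 libraries with p-values adjusted by Benjamini-Hochberg over all 13819 genes, at a threshold of 0.05. The number called higher in pDC was 0 in both by edgeR, and also 0 at an unadjusted p under 0.05, 0 by DESeq2 and 0 by limma-voom. The 2 pDC comparisons share the pDC libraries and are given side by side.

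The median log2 fold change of the members was -1.005 in pDC against cDC1, -0.73 in pDC against cDC2 and -0.17 in cDC2 against cDC1, where that of all tested genes was 0.018, -0.0088 and 0.027. The median absolute log2 fold change of the members was 1.00 in pDC against cDC1, where that of all tested genes was 0.63. It was 0.73 against 0.58 in pDC against cDC2, and 0.52 against 0.36 in cDC2 against cDC1. Pmaip1 and Bmf had the widest differences of the members. In pDC against cDC1, 15.3% of all tested genes had a wider difference than Pmaip1 and 19.7% a wider one than Bmf. In pDC against cDC2 these shares were 9.47% and 14.9%. When a log2 fold change of 1 or more in either direction was asked for as well, 4 members passed in pDC against cDC1 (29.4% of all genes), 2 in pDC against cDC2 (27.8%) and 1 in cDC2 against cDC1 (13.1%).

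**Figure D1:**
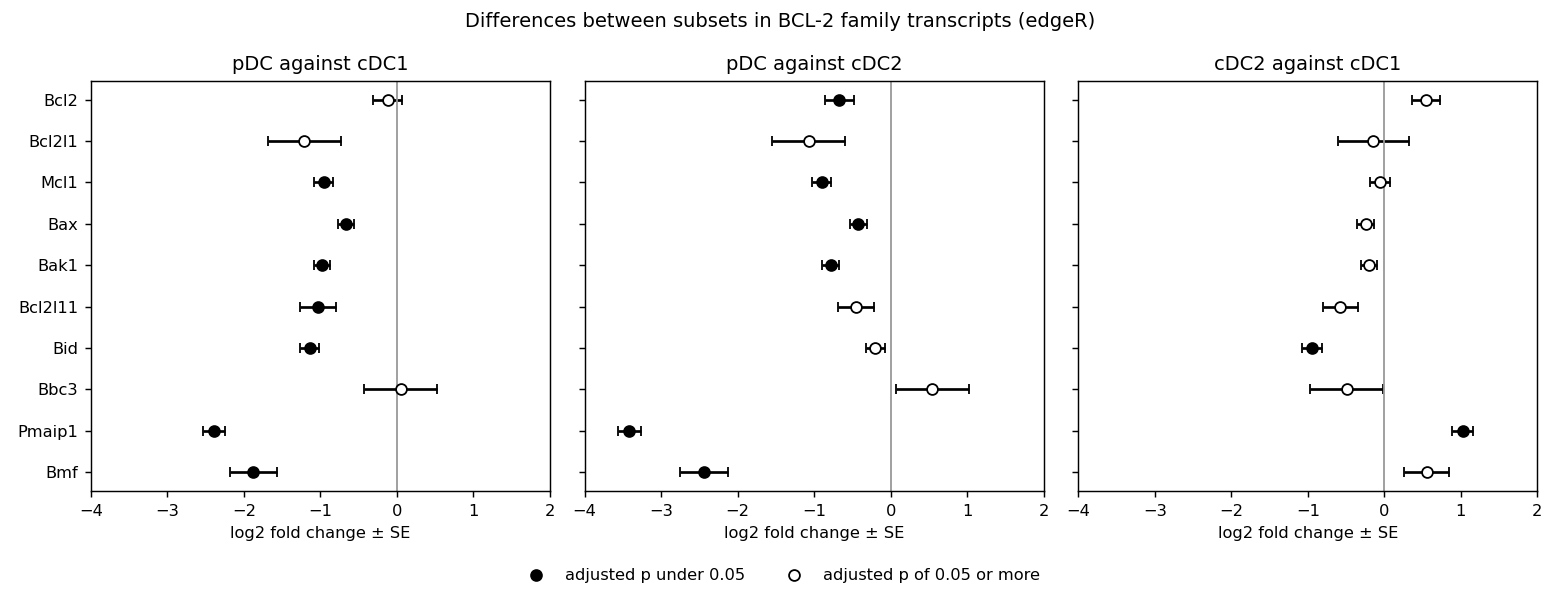
Log2 fold change (horizontal axis, bars show the standard error) of each of the 10 members in 3 panels, for pDC with cDC1, for pDC with cDC2 and for cDC2 with cDC1, from edgeR on 9 libraries. Filled points have an adjusted p under 0.05: they number 7, 6 and 2, and all filled points in the first 2 panels lie below 0.

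Among the 3 pro-survival members, Mcl1 carried most of the transcript and was lower in pDC than in both conventional subsets. MCL-1 is a short-lived protein on which many haematopoietic cells depend. Mcl1 stood at 518, 520 and 580 CPM in the cDC1 libraries, at 511, 533 and 512 CPM in the cDC2 libraries and at 243, 254 and 337 CPM in the pDC libraries, in the order of replicates 1, 2 and 3 that is used throughout. Every pDC library lay below every cDC library, and cDC1 and cDC2 overlapped. The level in pDC was 1.94-fold lower than in cDC1 (log2 fold change -0.96 ± 0.13, SE; edgeR adjusted p = 0.000174) and 1.87-fold lower than in cDC2 (-0.90 ± 0.13, adjusted p = 0.000284). Between cDC2 and cDC1 the difference was -0.06 ± 0.13 by edgeR (adjusted p = 0.811), and it came to 0.05 when libraries were scaled by total count alone.

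Bcl2 was the member with the lowest level per length in each subset, and its highest values were in cDC2. It stood at 7.18, 7.26 and 7.31 CPM in cDC1, at 8.80, 10.6 and 12.4 CPM in cDC2 and at 6.36, 6.39 and 7.25 CPM in pDC. The cDC2 libraries lay above all the others, while cDC1 and pDC overlapped. Bcl2 was lower in pDC than in cDC2 (-0.67 ± 0.19, edgeR adjusted p = 0.0158). That call was lost without pDC replicate 1 (-0.63, adjusted p = 0.0532, where the alternatives ran from 0.00315 to 0.0532). In cDC2 against cDC1 Bcl2 gave 0.55 ± 0.19 and did not pass (edgeR adjusted p = 0.0635). With the replicate number as a block it gave 0.53 and passed (adjusted p = 0.0480), and without pDC replicate 3 it also passed (0.54, adjusted p = 0.0398), where the range over alternatives was 0.0283 to 0.179. It also passed by DESeq2, with scaling by total count and with a minimum of 10 counts in every library, for 5 of 19 alternatives. In pDC against cDC1 the difference was -0.12 ± 0.19 (edgeR adjusted p = 0.631).

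Bcl2l1, which encodes BCL-XL, had the same order as Mcl1, but 1 library set much of its spread. Its values were 12.9, 11.3 and 17.4 CPM in cDC1, 15.1, 11.8 and 10.7 CPM in cDC2 and 8.41, 7.70 and 1.59 CPM in pDC. All pDC values lay below all cDC values, and pDC replicate 3 lay far below its own subset. That library held 27 Bcl2l1 counts, for which the exact 95% Poisson interval was 1.05 to 2.31 CPM, while the other pDC libraries held 278 and 152 counts. The interval covers counting error only, so counting error does not span the gap to 7.70 CPM. The difference from cDC1 was -1.21 ± 0.48 (edgeR adjusted p = 0.0594) and from cDC2 -1.07 ± 0.47 (adjusted p = 0.0932), neither past the threshold. On all 9 libraries the difference from cDC1 passed by DESeq2 (adjusted p = 0.0225) and limma-voom (adjusted p = 0.0387). By edgeR it passed with upper quartile scaling (adjusted p = 0.0485) and with no filter (adjusted p = 0.0432). The difference from cDC2 passed by limma-voom (adjusted p = 0.0474). Of 19 alternatives, 8 passed against cDC1 and 3 against cDC2. Without pDC replicate 3 both passed, at smaller size: -0.77 ± 0.23 against cDC1 (adjusted p = 0.0217) and -0.64 ± 0.23 against cDC2 (adjusted p = 0.0495). Without pDC replicate 1 the difference from cDC1 was -1.56 (adjusted p = 0.0456). The replicate block brought the cDC1 comparison past the threshold (-1.33, adjusted p = 0.0357) and raised the members called there to 8, where it called 58.6% of all genes. Over the alternatives the adjusted p ran from 0.0148 to 0.144 against cDC1 and from 0.00713 to 0.228 against cDC2.

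**Figure D2:**
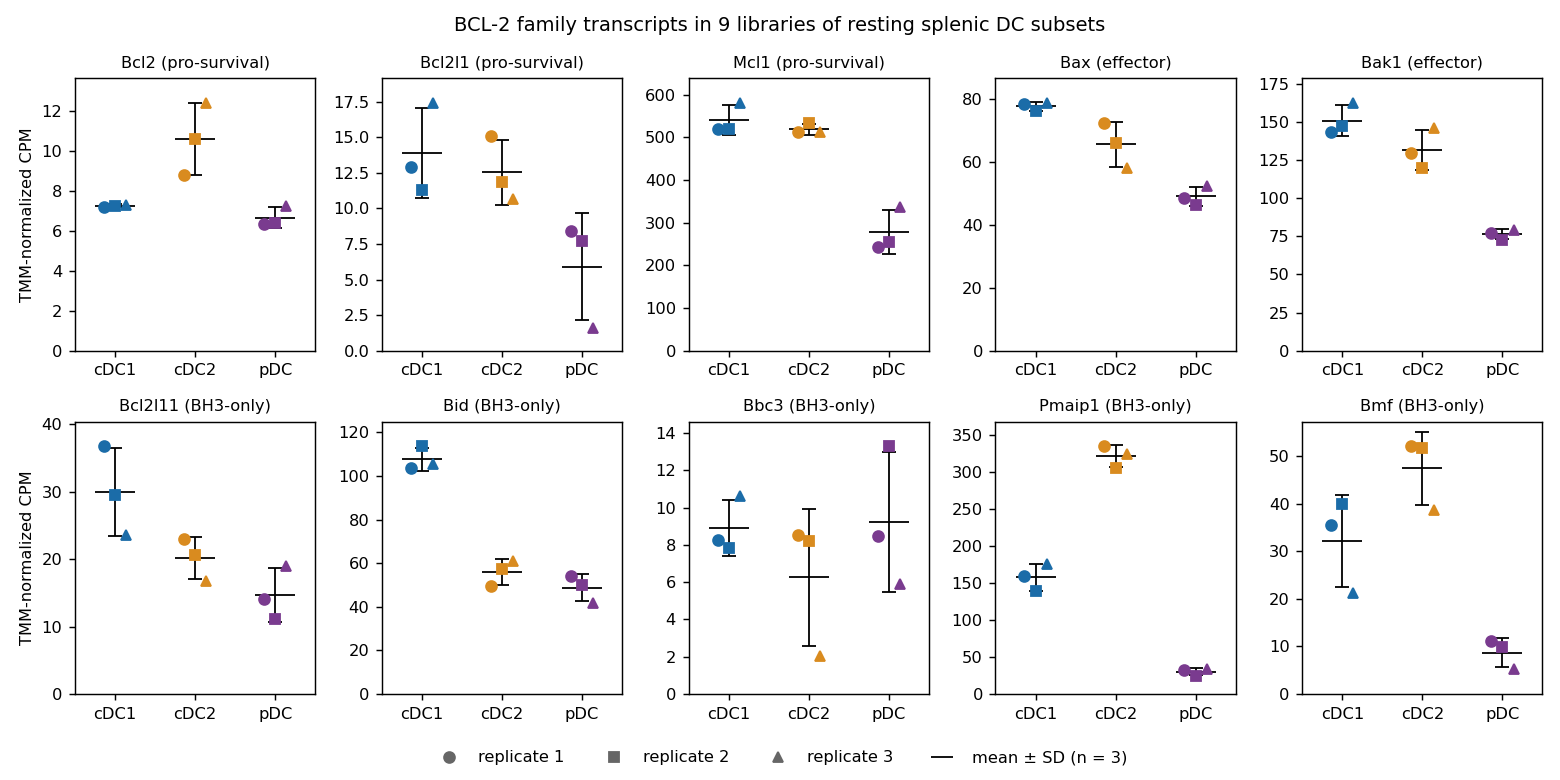
TMM-normalized CPM (vertical axes, each from 0) of the 10 members in cDC1, cDC2 and pDC, with a marker for each replicate and lines for the mean ± SD of 3 libraries. The pDC libraries lie below every cDC1 and cDC2 library for Bcl2l1, Mcl1, Bax, Bak1, Pmaip1 and Bmf, 6 of the 10 members. The share of all tested genes with such a gap is 20%. For Bcl2l1, pDC replicate 3 stands apart at 1.59 CPM.

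Both effector genes were lower in pDC. BAX sits largely in the cytosol until it is activated, and BAK resides on the mitochondrial membrane, and either can form the pore. Bak1 stood at 143, 147 and 162 CPM in cDC1, at 130, 120 and 146 CPM in cDC2 and at 77.1, 72.6 and 79.4 CPM in pDC. The pDC libraries did not overlap the others, while cDC1 and cDC2 did overlap. Bak1 was 1.97-fold lower in pDC than in cDC1 (-0.98 ± 0.11, edgeR adjusted p = 4.18e-05) and 1.72-fold lower than in cDC2 (-0.79 ± 0.11, adjusted p = 0.000206). In cDC2 against cDC1 it gave -0.20 ± 0.11 (edgeR adjusted p = 0.230), lower in cDC2 in 3 of 3 pairs with the same replicate number. With the replicate block this passed at the same size (-0.20, adjusted p = 0.0474, where the alternatives ran from 0.0474 to 0.585).

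Bax had the narrower differences of the pair. It stood at 78.3, 75.9 and 78.6 CPM in cDC1, at 72.4, 66.1 and 58.1 CPM in cDC2 and at 48.4, 46.2 and 52.3 CPM in pDC. The subsets did not overlap, in the order cDC1, cDC2 and pDC from high to low. Bax was 1.58-fold lower in pDC than in cDC1 (-0.66 ± 0.11, edgeR adjusted p = 0.000712) and 1.34-fold lower than in cDC2 (-0.42 ± 0.11, adjusted p = 0.0105). The call against cDC2 was lost without cDC2 replicate 1 (-0.34, adjusted p = 0.0525, where the alternatives ran from 0.00126 to 0.0525). The difference between cDC2 and cDC1 was -0.24 ± 0.11 and did not pass (edgeR adjusted p = 0.147). The annotation places a second gene, Gm45808, over 12.2% of the Bax exon bases on the same strand, and Ggnbp1 over 25.5% of the Bak1 exon bases on the opposite strand. Gm45808 was not analysed here, and the Ggnbp1 row of the table averaged 11.6 counts per library.

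The BH3-only genes differed between subsets in different orders. Pmaip1, whose product NOXA engages MCL-1, was highest in cDC2, intermediate in cDC1 and lowest in pDC. It stood at 159, 139 and 175 CPM in cDC1, at 334, 305 and 324 CPM in cDC2 and at 32.2, 24.3 and 33.8 CPM in pDC. The subsets were separated by gaps far wider than the spread within any of them. Pmaip1 was 5.23-fold lower in pDC than in cDC1 (-2.39 ± 0.15, edgeR adjusted p = 9.60e-07) and 10.7-fold lower than in cDC2 (-3.42 ± 0.15, adjusted p = 1.60e-07). It was 2.04-fold higher in cDC2 than in cDC1 (1.03 ± 0.14, edgeR adjusted p = 0.000487), in 3 of 3 pairs.

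Bmf, whose product is held on the cytoskeleton by a dynein light chain, was also lowest in pDC. It stood at 35.4, 39.8 and 21.3 CPM in cDC1, at 52.0, 51.7 and 38.6 CPM in cDC2 and at 11.0, 9.88 and 5.18 CPM in pDC. Replicate 3 was the lowest library of every subset, and the pDC libraries lay below all the others. Bmf was 3.68-fold lower in pDC than in cDC1 (-1.88 ± 0.31, edgeR adjusted p = 0.000672) and 5.41-fold lower than in cDC2 (-2.44 ± 0.31, adjusted p = 0.000145). In cDC2 against cDC1 it gave 0.56 ± 0.29 (edgeR adjusted p = 0.216), higher in cDC2 in 3 of 3 pairs. With the replicate block this became 0.59 and passed (adjusted p = 0.00836, where the alternatives ran from 0.00836 to 0.547). With the block 5 members were called in cDC2 against cDC1 (Bcl2, Bak1, Bid, Pmaip1 and Bmf), where 35.6% of all genes were called, and 6 in pDC against cDC2, where 55.5% were.

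Bid was highest in cDC1. Its product is cut by caspase-8 downstream of death receptors and then moves to mitochondria. Bid stood at 104, 114 and 106 CPM in cDC1, at 49.5, 57.3 and 61.1 CPM in cDC2 and at 54.3, 49.9 and 41.9 CPM in pDC. The cDC1 libraries lay above all the others, and cDC2 and pDC overlapped. Bid was 2.21-fold lower in pDC (-1.14 ± 0.13, edgeR adjusted p = 5.23e-05) and 1.92-fold lower in cDC2 (-0.94 ± 0.13, adjusted p = 0.000480) than in cDC1. Between pDC and cDC2 the difference was -0.20 ± 0.13 (edgeR adjusted p = 0.237). Bcl2l13 overlaps 17.7% of the Bid exon bases on the opposite strand, and whether counting used the strand is not given in the sources used here. Bcl2l13 itself averaged 61.3, 60.5 and 59.0 CPM in cDC1, cDC2 and pDC and was called in no comparison between subsets.

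Bcl2l11, which encodes BIM, a killer of lymphoid and myeloid cells deprived of survival signals, was highest in cDC1. It stood at 36.7, 29.4 and 23.6 CPM in cDC1, at 23.0, 20.6 and 16.8 CPM in cDC2 and at 14.1, 11.0 and 19.0 CPM in pDC. The cDC1 libraries lay just above the others, and cDC2 and pDC overlapped through pDC replicate 3. Bcl2l11 was 2.04-fold lower in pDC than in cDC1 (-1.03 ± 0.23, edgeR adjusted p = 0.00482). It did not pass in pDC against cDC2 (-0.46 ± 0.23, adjusted p = 0.141) or in cDC2 against cDC1 (-0.57 ± 0.23, adjusted p = 0.108), where cDC2 was lower in 3 of 3 pairs and the call was made without replicate 3 of all subsets (-0.63, adjusted p = 0.0220). Without pDC replicate 3 the pDC and cDC2 difference was -0.67 and passed (adjusted p = 0.0350, where the alternatives ran from 0.00627 to 0.366).

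Bbc3, which encodes the p53 target PUMA, did not pass in any comparison. It stood at 8.27, 7.84 and 10.6 CPM in cDC1, at 8.54, 8.23 and 2.02 CPM in cDC2 and at 8.48, 13.3 and 5.89 CPM in pDC. All the subsets overlapped, and cDC2 replicate 3 was the lowest library. It held 38 counts (exact 95% Poisson interval 1.43 to 2.77 CPM), while the other cDC2 libraries held 268 and 235. The differences were 0.05 ± 0.48 in pDC against cDC1 (edgeR adjusted p = 0.938), 0.55 ± 0.48 in pDC against cDC2 (0.393) and -0.49 ± 0.48 in cDC2 against cDC1 (0.533). Without cDC2 replicate 3 the last was -0.11 ± 0.32 (adjusted p = 0.856) and the pDC and cDC2 difference was 0.13 ± 0.32 (adjusted p = 0.786). The standard error of 0.48 is wide enough that a difference of moderate size would not have been seen.

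Levels of different genes can be set side by side only per length, and for this the CPM values were divided by the kilobases of exon of each gene (FPKM). On that scale Mcl1 was the highest and Bcl2 the lowest of the 10 members in all 3 subsets. Mcl1 reached 158, 152 and 81.3 FPKM in cDC1, cDC2 and pDC, above 97.4%, 97.3% and 95.1% of tested genes, and Bcl2 reached 0.792, 1.16 and 0.728 FPKM, above 21.6%, 24.5% and 20.3%. Mcl1 made up 97.6%, 97.5% and 97.4% of the summed level of the 3 pro-survival genes. That sum was 162 ± 10.9 FPKM (SD, n = 3) in cDC1, 156 ± 3.59 in cDC2 and 83.3 ± 14.3 in pDC.

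Pmaip1 changed place most in the order of the 10 members. It was the second highest in cDC2 at 118 FPKM, the third in cDC1 at 57.7 FPKM and the fifth in pDC at 11.0 FPKM. Bak1 was at 62.6, 54.7 and 31.7 FPKM and Bax at 49.2, 41.6 and 31.1 FPKM in cDC1, cDC2 and pDC, and in pDC the pair did not differ beyond their spread. The order of Bak1 over Bax rests on the exon length used. With the length of the principal transcript alone Bax came to 89.5, 75.6 and 56.5 and Bak1 to 63.2, 55.2 and 32.0 CPM per kilobase, and the order turned. Bbc3 at 4.20, 2.95 and 4.34 FPKM, Bcl2l11 at 3.73, 2.51 and 1.83 FPKM and Bcl2l1 at 3.03, 2.73 and 1.29 FPKM were among the low members, with Bmf at 1.66 FPKM between Bcl2l11 and Bcl2l1 in pDC, and their order differed between subsets.

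**Figure D3:**
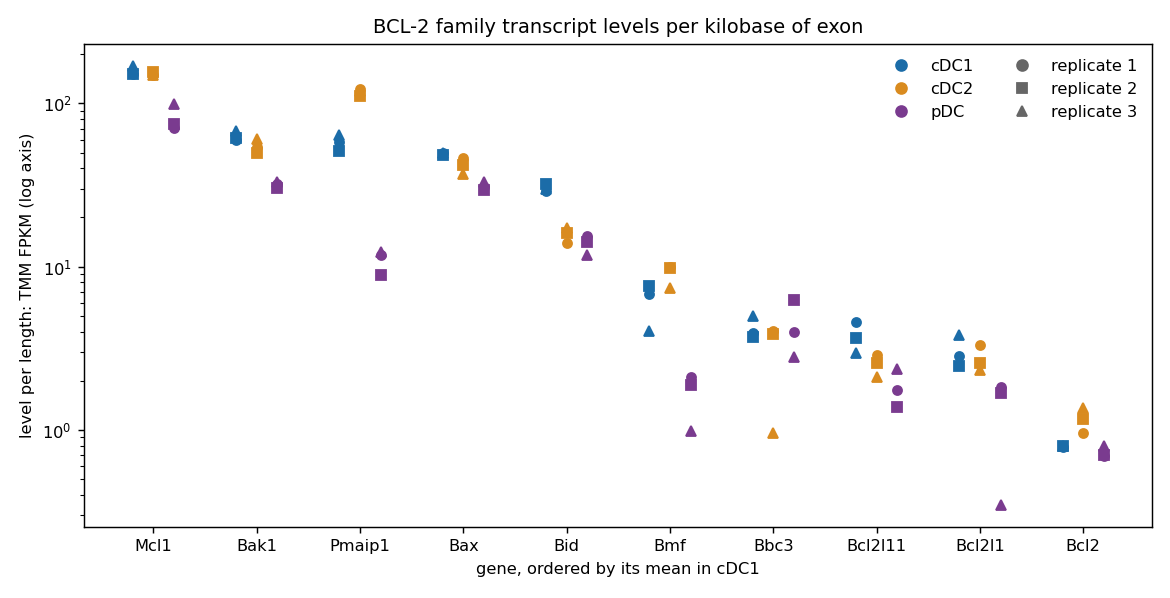
Level per kilobase of exon (TMM FPKM, log axis) of the 10 members in each of the 9 libraries, ordered from left to right by the cDC1 mean, with colours for subsets and markers for replicates. Mcl1 is highest and Bcl2 lowest in each subset, and the Pmaip1 libraries span from 8.91 FPKM in pDC to 122 FPKM in cDC2.

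The make-up of the BH3-only pool differed between the subsets. The summed level of the 5 BH3-only genes was 102 ± 4.11 FPKM (SD, n = 3) in cDC1, with libraries from 97.7 to 106. It was 148 ± 4.66 FPKM in cDC2, from 144 to 153, and 32.6 ± 2.32 FPKM in pDC, from 30.3 to 34.9, so no library of a subset reached into another. Pmaip1 made up 56.4% ± 4.32 of it in cDC1, 79.5% ± 1.85 in cDC2 and 34.0% ± 6.69 in pDC. Bid held 42.0% ± 2.64 in pDC, against 29.8% in cDC1 and 10.7% in cDC2, and was the largest in pDC replicates 1 and 2, while in pDC replicate 3 Pmaip1 was slightly above it (12.4 and 11.8 FPKM). Bbc3 held 13.3% in pDC, 4.10% in cDC1 and 1.99% in cDC2. These shares and orders rest on the exon length used. With the length of the principal transcript alone, Bid came to 49.2, 25.6 and 22.3 CPM per kilobase in cDC1, cDC2 and pDC. Pmaip1 came to 57.8, 118 and 11.0, so the 2 lay closer in cDC1 and further apart in pDC. On that length Bid lay above Pmaip1 in pDC replicate 3 too, and in cDC1 replicate 2. The summed effector level was 112 ± 4.64 FPKM in cDC1, 96.3 ± 4.13 in cDC2 and 62.8 ± 3.32 in pDC.

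**Figure D4:**
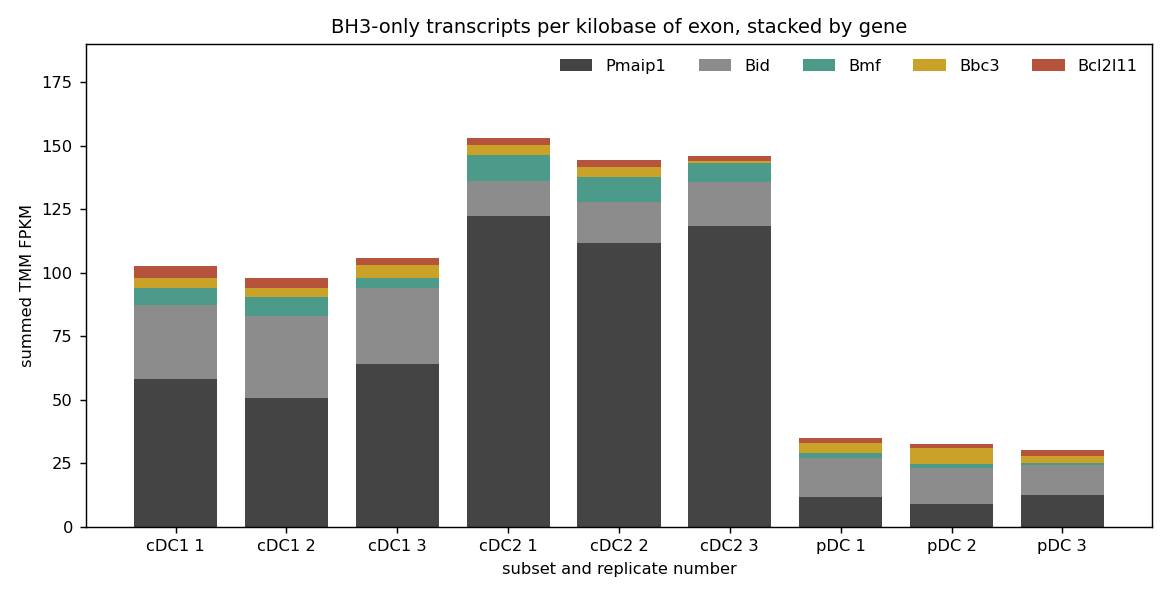
Stacked TMM FPKM (vertical axis, from 0) of the 5 BH3-only genes in each library of cDC1, cDC2 and pDC. The bars sum to 97.7 to 106 in cDC1, 144 to 153 in cDC2 and 30.3 to 34.9 in pDC. On the exon lengths used, the Pmaip1 segment is the largest in every cDC1 and cDC2 library.

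Ratios of a pair of genes within a library do not depend on how libraries are scaled, and 8 such ratios were compared between subsets by an exact permutation test of the F statistic over the libraries, adjusted over the 8. Pmaip1 to Mcl1 sets a BH3-only gene over the gene of a pro-survival protein that its product engages. The ratio leaves out the pro-survival protein A1, whose genes are given below. This ratio was 0.383, 0.334 and 0.379 in the cDC1 libraries, 0.818, 0.716 and 0.792 in cDC2 and 0.166, 0.120 and 0.125 in pDC. The subsets did not overlap, and cDC2 exceeded pDC 5.71-fold (log2 difference 2.51, exact permutation adjusted p = 0.0286, from the smallest raw p that 1680 arrangements can give, 0.00357). Bcl2 to Mcl1 came to 0.00502, 0.00755 and 0.00903 in cDC1, cDC2 and pDC as geometric means (log2 difference 0.85, exact permutation adjusted p = 0.0286). When each library was left out in turn, the Pmaip1 to Mcl1 ratio passed each time. Bcl2 to Mcl1 did not pass without any of the cDC1 replicates, cDC2 replicate 2, pDC replicate 1 or pDC replicate 2, with exact permutation adjusted p from 0.0571 to 0.0714 and log2 differences from 0.79 to 0.87. With the replicate block neither passed: Pmaip1 to Mcl1 had the smallest raw p that block allows, 0.0278, and Bcl2 to Mcl1 had 0.0556, and both had an exact permutation adjusted p of 0.148.

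The other 6 ratios did not pass. Bcl2l11 to Bcl2 came to 4.63, 2.17 and 2.46 in cDC1, cDC2 and pDC (exact permutation adjusted p = 0.0571), and without cDC2 replicate 1 its log2 difference went from 1.09 to 1.32 and passed (exact permutation adjusted p = 0.0476). Bmf to Bcl2 was 7.47, 7.81 and 2.17 (exact permutation adjusted p = 0.0571), and without cDC2 replicate 3 its log2 difference went from 1.85 to 2.11 and passed (exact permutation adjusted p = 0.0429). Bak1 to Bax was 1.27, 1.32 and 1.02 (exact permutation adjusted p = 0.109). Without cDC2 replicate 3 its log2 difference went from 0.37 to 0.21 and passed (exact permutation adjusted p = 0.0190). Bcl2l11 to Mcl1 was 0.0233, 0.0164 and 0.0222 (exact permutation adjusted p = 0.220). The 2 ratios over Bcl2l1 rested on pDC replicate 3, where Mcl1 to Bcl2l1 was 284 against 38.7 and 44.2 in the other pDC libraries. Mcl1 to Bcl2l1 was 52.9, 56.1 and 78.6 as geometric means (exact permutation adjusted p = 0.989), and without pDC replicate 3 the order of pDC and the cDC turned, with a log2 difference of -0.36. Bcl2 to Bcl2l1 was 0.266, 0.424 and 0.710 (exact permutation adjusted p = 0.220).

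Beyond the 10 members, wide differences lay in the Bcl2a1 genes, which encode the pro-survival protein A1. The mouse holds several near-identical copies, so the single genes are uncertain, and 68.4% of the 75-base windows of Bcl2a1b are shared with other genes. The summed level of Bcl2a1a, Bcl2a1b and Bcl2a1d was 414, 350 and 336 CPM in cDC1, 456, 364 and 362 CPM in cDC2 and 10.4, 3.35 and 2.47 CPM in pDC. The pDC libraries lay far below all cDC libraries, and replicate 1 was the highest in every subset. The mean was 67.8-fold higher in cDC1 and 72.9-fold higher in cDC2 than in pDC, and without pDC replicate 1 these became 126-fold and 136-fold. Only Bcl2a1b was given an exon length here. Per length it came to 80.2 ± 11.3, 155 ± 25.3 and 1.93 ± 1.45 FPKM (SD, n = 3) in cDC1, cDC2 and pDC. In cDC2 this single copy was thus level with Mcl1, and the summed copies were not put on that scale. Bcl2a1b averaged 65.5, 127 and 1.57 CPM, where the sum averaged 367, 394 and 5.41 CPM. A further gene, Gm29094, covers 49.1% of the Bcl2a1b exon bases on the same strand. Singly, Bcl2a1a gave -6.32 ± 0.41 in pDC against cDC1 (edgeR adjusted p = 1.38e-06), Bcl2a1b -5.27 ± 0.41 (adjusted p = 4.11e-06) and Bcl2a1d -6.11 ± 0.47 (adjusted p = 4.05e-06). Between cDC2 and cDC1 none of the 3 passed by edgeR. Bcl2a1b gave 0.95 there (edgeR adjusted p = 0.0600) and passed with the replicate block at the same size (adjusted p = 0.00292). It passed in 10 of 19 alternatives, also without pDC replicate 1 or 3, with adjusted p from 0.00168 to 0.195. Bcl2a1a passed in 3 and Bcl2a1d in 0 of them.

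**Figure D5:**
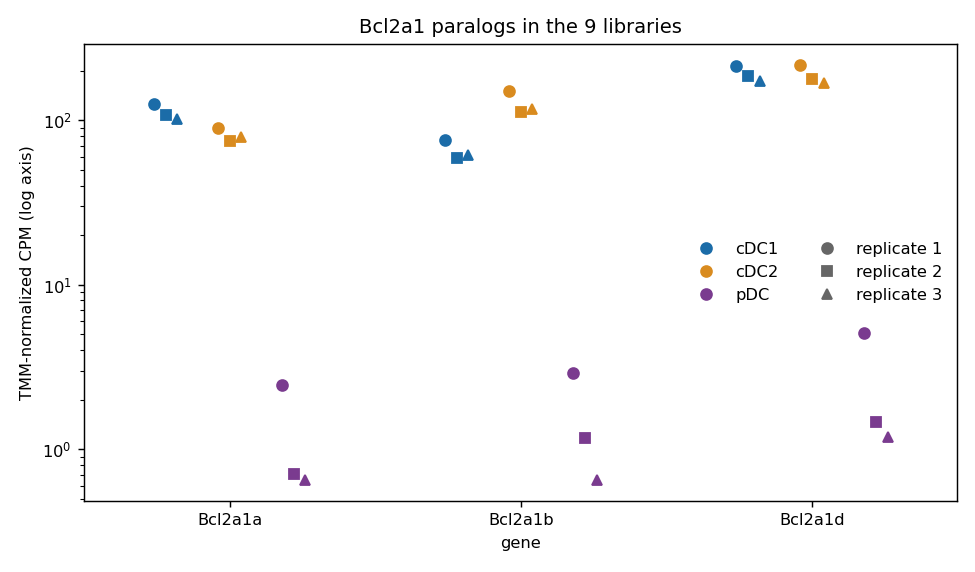
TMM-normalized CPM (log axis) of Bcl2a1a, Bcl2a1b and Bcl2a1d in each of the 9 libraries, with colours for subsets and markers for replicates. The cDC1 and cDC2 libraries lie above 59.0 CPM for each gene, and the pDC libraries lie below 5.1 CPM.

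The other family genes on the list were few. Bcl2l2, which encodes the pro-survival protein BCL-W, averaged 7.90 ± 1.45 CPM (SD, n = 3) in cDC1, 5.17 ± 1.63 in cDC2 and 14.7 ± 9.56 in pDC, with pDC libraries from 3.65 CPM in replicate 3 to 20.8 CPM. It was higher in pDC than in cDC2 (1.50 ± 0.53, edgeR adjusted p = 0.0431), but only 9 of 19 alternatives kept the call. Without any 1 of the cDC1 libraries, the cDC2 libraries, pDC replicate 1 or pDC replicate 2 it did not pass (differences from 1.16 to 1.76, adjusted p from 0.0546 to 0.144). In pDC against cDC1 Bcl2l2 gave 0.89 (edgeR adjusted p = 0.191) and passed without pDC replicate 3 (1.35, adjusted p = 0.00258). Bcl2l10 and the BH3-only gene Hrk had 0 counts in all 9 libraries, which allows levels up to the floor of 0.0908 to 0.203 CPM. Bok and Bik were at 11 counts or fewer in every library and did not pass the filter. Bad, a BH3-only gene whose product is silenced by growth factor signalling, averaged 22.7, 16.2 and 27.1 CPM in cDC1, cDC2 and pDC. It was higher in pDC than in cDC2 (0.74 ± 0.13, edgeR adjusted p = 0.000944) and lower in cDC2 than in cDC1 (-0.48 ± 0.13, adjusted p = 0.0199). The latter was lost without cDC1 replicate 1, cDC1 replicate 2, cDC2 replicate 1 or cDC2 replicate 2, with differences from -0.50 to -0.45. It was also lost by edgeR with scaling by total count (-0.37, adjusted p = 0.0576) and with no filter (-0.49, adjusted p = 0.0521), so 13 of 19 alternatives kept it. Of 7 relatives with other roles, Bnip3l, a mitophagy receptor, was the only one called higher in pDC than in cDC1 (0.51 ± 0.10, edgeR adjusted p = 0.00245), and Bcl2l14 the only one called lower, at 87.1, 12.5 and 7.83 CPM in cDC1, cDC2 and pDC (-3.47 ± 0.24, adjusted p = 1.90e-06). These were 2 of 7 genes called in pDC against cDC1, where 48.6% of all tested genes were called. Bcl2l14 was also lower in cDC2 than in cDC1 (-2.80 ± 0.23). It was lower in pDC than in cDC2 as well (-0.66 ± 0.22, edgeR adjusted p = 0.0354), a call kept in 12 of 19 alternatives.

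Downstream of the mitochondrion, the called genes among the apoptosome, caspases and their inhibitors were lower in pDC than in the conventional subset they were called against. Of 10 genes, 6 were called lower and 0 higher in pDC against cDC1 (median log2 fold change -0.58): Cycs, Apaf1, Casp9, Casp6, Diablo and Htra2. Of all tested genes 24.4% were called lower and 24.3% higher there. In pDC against cDC2, 6 were lower and 0 higher (median -0.53, against 23.3% and 22.5% of all genes), and in this comparison the called genes included the inhibitors Xiap, Birc2 and Birc3. Xiap there was lost without cDC1 replicate 1 or 2, cDC2 replicate 2 or 3, or pDC replicate 1 or 2 (-0.64 to -0.37, adjusted p from 0.0553 to 0.148). It was also lost by edgeR with upper quartile scaling (adjusted p = 0.0514), RLE scaling (0.0519) and the 6 libraries of the compared subsets alone (0.0765). The call was kept in 10 of 19 alternatives. The 0 genes called higher in each comparison by edgeR were also 0 at an unadjusted p under 0.05, 0 by DESeq2 and 0 by limma-voom, but with the replicate block Birc6 passed as higher in pDC than in cDC1 (0.40, adjusted p = 0.00640). Casp6, which encodes a caspase, averaged 107, 34.4 and 34.6 CPM in cDC1, cDC2 and pDC (-1.63 ± 0.14 in pDC against cDC1, edgeR adjusted p = 7.03e-06), so it set cDC1 apart from both others, as Bid did. In cDC2 against cDC1, Xiap and Birc2 were called higher and Casp9 and Casp6 lower (median 0.08). With the replicate block 5 were higher and 3 lower there, where 35.6% of all genes were called. Xiap, which blocks caspase-9, gave 0.81 ± 0.21 there (edgeR adjusted p = 0.0177), and the call was lost without cDC1 replicate 1, cDC1 replicate 2 or cDC2 replicate 3 (0.75, 0.80 and 0.56).

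Upstream, calls went in both directions. Of 6 genes of the death receptor arm that acts on BID, 2 were called lower and 0 higher in pDC against cDC1, 3 lower and 1 higher in pDC against cDC2, and 1 lower and 1 higher in cDC2 against cDC1 (median log2 fold changes -0.20, -0.37 and -0.03). Of all tested genes 48.6%, 45.8% and 24.4% were called in these comparisons, so the share of this list was below the background in the first and above it in the others. Fas, a death receptor, averaged 9.98, 7.13 and 1.37 CPM in cDC1, cDC2 and pDC (-2.86 ± 0.33 in pDC against cDC1, edgeR adjusted p = 5.83e-05). Cflar, an inhibitor of caspase-8, averaged 47.9, 85.0 and 42.8 CPM (0.83 ± 0.16 in cDC2 against cDC1, edgeR adjusted p = 0.00445). Of 11 genes of p53 and its targets, 10 were tested: 3 were higher and 2 lower in pDC against cDC1, 2 and 2 in pDC against cDC2, and 2 and 0 in cDC2 against cDC1 (medians 0.28, -0.10 and 0.15), shares near the same 48.6%, 45.8% and 24.4% of all genes. The counts of 0 in these lists by edgeR were also 0 at an unadjusted p under 0.05, 0 by DESeq2 and 0 by limma-voom, but the replicate block changed them. With it Cdkn1a (-0.58, adjusted p = 0.0325) and Mdm2 (-0.34, adjusted p = 0.0272) passed as lower in cDC2 than in cDC1, for counts of 3 higher and 2 lower in the p53 list, and Casp8 of the death receptor arm as higher in pDC than in cDC1 (0.20, adjusted p = 0.0390). Cdkn1a, a cell cycle inhibitor, averaged 20.8, 14.1 and 2.28 CPM (-3.17 ± 0.34 in pDC against cDC1, edgeR adjusted p = 3.77e-05), whereas Trp53inp1 averaged 25.6, 27.9 and 79.6 CPM (1.63 ± 0.14, adjusted p = 8.89e-06). The targets Pmaip1, Bbc3 and Bax were counted with the members and not here. Sesn2 had its highest level in cDC2, at 28.3, 78.4 and 45.2 CPM (1.47 ± 0.11 in cDC2 against cDC1, edgeR adjusted p = 1.39e-05).

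Among regulators of the members, 10 of 11 listed genes were tested, and 4 were called higher and 2 lower in pDC against cDC1. Against cDC2, 2 were higher and 1 lower in pDC, and in cDC2 against cDC1 1 was higher and 3 were lower (medians 0.33, 0.28 and 0.03). The 6, 3 and 4 genes called stand beside 48.6%, 45.8% and 24.4% of all tested genes. With the replicate block 5 were higher and 2 lower in pDC against cDC2, where 55.5% of all genes were called. Foxo3, a transcription factor known to raise Bcl2l11 and Bbc3, averaged 29.2, 49.4 and 63.5 CPM in cDC1, cDC2 and pDC (1.12 ± 0.12 in pDC against cDC1, edgeR adjusted p = 4.26e-05). Btrc, part of an E3 ubiquitin ligase, averaged 12.6, 16.6 and 52.8 CPM (2.06 ± 0.14, edgeR adjusted p = 1.60e-06). Vdac2, whose product holds BAK at the mitochondrial membrane, averaged 308, 204 and 146 CPM and was lower in pDC than in cDC1 (-1.08 ± 0.13, edgeR adjusted p = 9.85e-05). Dynll2, the dynein light chain that tethers BMF, averaged 187, 106 and 91.0 CPM (-1.03 ± 0.18 in pDC against cDC1, edgeR adjusted p = 0.000889, and -0.82 ± 0.18 in cDC2 against cDC1, adjusted p = 0.00754).

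The genes whose pattern over the 9 libraries was most like that of a member were sought among 10482 genes for the 3 members with the widest range, as a description by Pearson's r of log2(CPM + 1). For Pmaip1 they were Rasgef1b (r = 0.999), Glud1 (0.998) and Cotl1 (0.998), each highest in cDC2 and lowest in pDC. For Bmf they were Stk38 (0.996), Phlpp1 (0.995) and Tmem131 (0.992), and for Bcl2l1 Immp2l (0.990), Hspb11 (0.982) and BC026585 (0.982). For Bcl2l1 the pDC values include replicate 3 at 1.59 CPM, against 8.41 and 7.70 CPM in the other pDC libraries. Its range and its correlations thus rest in part on that library. The libraries of a subset share their cell type and those of a replicate number their date code, and no p is given.

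Replicate 3 carried its own pattern, which touches some members. The same replicate number bears the same date code in every subset. Against replicates 1 and 2, with the subset in the fit, 1 member was called: Bmf was lower in replicate 3 (-0.72 ± 0.13, edgeR adjusted p = 0.00489). Of all tested genes 23% were called in this comparison, 12.1% lower and 10.9% higher in replicate 3. Mcl1 gave 0.19 ± 0.08 (edgeR adjusted p = 0.116) and Bak1 0.16 ± 0.06 (adjusted p = 0.0821). The summed level of 10 immediate-early and heat-shock genes was 2951, 1957 and 6180 CPM in cDC1, 3142, 3433 and 6003 CPM in cDC2 and 1565, 1638 and 3990 CPM in pDC. It was highest in replicate 3 of every subset, and its part in the Bmf, Bcl2l1 and Bbc3 values of that replicate was not tested. The sum was also lowest in pDC within each replicate number, although Jun, 1 of the 10 genes, averaged 613, 839 and 1053 CPM in cDC1, cDC2 and pDC. Whether this has a part in the member differences between subsets was not tested either. Within replicates 1 and 2 alone, 8 members were called in pDC against cDC1, 8 in pDC against cDC2 and 5 in cDC2 against cDC1, where 63%, 59.8% and 37.7% of all genes were called.

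Several marker lists of other cells had far higher sums in 1 subset than in the others. The T cell and erythroid sums stayed at 67.9 CPM or below in every library. The summed level of 5 listed B cell markers was 179 to 211 CPM in the cDC2 libraries, 16.9 to 21.2 in cDC1 and 11.9 to 15.2 in pDC. Most of it in cDC2 was Cd22 (195 CPM), while Pax5 (0.0998 CPM) and Ebf1 (0.101 CPM) were near the floor. The 7 macrophage markers summed to 432 to 592 CPM in cDC2, 91.2 to 155 in cDC1 and 25.4 to 150 in pDC, and Adgre1 (344 CPM in cDC2) made up most of it. The 7 neutrophil and monocyte markers reached 2204 to 3066 CPM in pDC, 79.4 to 174 in cDC1 and 164 to 271 in cDC2, and Ly6c2 (2226 CPM) made up most of it. The 4 plasma cell markers summed to 598 to 877 CPM in pDC, 112 to 142 in cDC1 and 93.7 to 108 in cDC2. In pDC most of it was Xbp1 (354 CPM) and Jchain (338 CPM), while Tnfrsf17 was at 0.560 CPM. NK cell markers (6 genes) ran from 24.8 to 160 CPM, T cell markers (6) from 12.6 to 40.6 and erythroid markers (6) from 36.6 to 67.9 over all libraries. None of the listed markers was at 0 throughout a subset. The B cell and macrophage sums were highest in cDC2, where Pmaip1 was highest, and the neutrophil and monocyte and the plasma cell sums were highest in pDC, where 6 members (against 20% of all tested genes) had every library below every cDC library, and their part in the member values was not tested.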

How the data were processed

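RNA from 9 libraries (3 each of cDC1, cDC2 and pDC, TruSeq Stranded mRNA, 75-base single reads) was analysed. The authors deposited raw read counts per gene. The submitters' processing notes name STAR, SAMtools, featureCounts, MultiQC and mm10. Versions, annotation and the strand setting are not given in the sources used here. No column of per-sample values was left unmapped. Counts per gene pool its isoforms.

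From the counts, edgeR 4.0.16 (R 4.3.3) was run with TMM scaling, filterByExpr (minimum count 10) and a quasi-likelihood test of subset over all 9 libraries. P-values were adjusted by Benjamini-Hochberg over 13819 genes, and standard errors are the log2 fold change over the root of F. The test was checked on simulated data. Exon lengths came from GENCODE M21 (GRCm38), which held 37607 of 39179 identifiers (96.0%). Alternatives used DESeq2 1.42.0, limma-voom (limma 3.58.1), other scalings and filters, the replicate block and left-out libraries. Replicate numbers share a date code in the labels, and same-numbered libraries deviated together (9 pairs, correlations 0.266 to 0.543, mean 0.403), so the numbers pair the samples. Figures were drawn with matplotlib 3.10.9.

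The text names all members, all Bcl2a1 copies, and from each related list the genes with the largest called rise and fall in pDC against cDC1 and cDC2 against cDC1 at a mean count of at least 100. Bcl2l2, Bok, Bik, Hrk, Bcl2l10, Bcl2l13, Ggnbp1, Mdm2, Casp8 and Birc6 were named after their values were seen. Cycs, Apaf1, Casp9, Diablo, Htra2, Birc2 and Birc3 fell outside that rule too and were named because they were called. Some listed genes are not reported here and were left out of the list counts and sums. The members and lists were chosen with earlier results of these data known.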

Additional observations from a re-analysis of the deposited data

How the results depend on the processing

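Of 30 member differences between subsets, 17 had the same direction and side of the threshold in every one of 19 refits. All 7 calls in pDC against cDC1 held in all 19, as did Mcl1, Bak1, Pmaip1 and Bmf in pDC against cDC2 and Bid and Pmaip1 in cDC2 against cDC1. The replicate block changed 4 member calls, each given above, and no other. Asking for a log2 fold change of at least 1 as well left 4 members called for pDC with cDC1, 2 for pDC with cDC2 and 1 for cDC2 with cDC1. In the last, the replicate block called 5 members and leaving out replicate 3 called 5. For replicate 3 against the others, DESeq2 called 3 members, and limma-voom, upper quartile scaling, RLE scaling and a minimum of 10 counts in every library called 2 each, where 24.2% to 32.9% of all genes were called. Leaving out each library called 1 to 2, where 14.8% to 22.9% of all genes were called. Without replicate 3, the log2 ratio differences were 0.88 for Bcl2 to Mcl1 and 2.44 for Pmaip1 to Mcl1 (both exact permutation adjusted p = 0.178) and -0.48 for Mcl1 to Bcl2l1. That setting has only 90 arrangements. The first 2 ratios had the smallest raw p these allow in the exact permutation test, 0.0667, so no ratio could pass there. With the replicate block the first pair gave 0.85 and 2.51 and did not pass. Leaving out each library gave 0.79 to 0.93 for Bcl2 to Mcl1, -0.36 to 1.08 for Mcl1 to Bcl2l1, 0.21 to 0.45 for Bak1 to Bax, 0.85 to 1.32 for Bcl2l11 to Bcl2 and 1.45 to 2.11 for Bmf to Bcl2. Reversals of single genes were all of differences that did not pass. In pDC against cDC1, Bbc3 gave -0.072 with the block and -0.32 to 0.29 when each library was left out. In cDC2 against cDC1 without replicate 3, Bbc3 gave 0.027, Bcl2l1 0.12 and Trp53inp1 -0.040. There, leaving out each library gave -0.30 to 0.020 for Bcl2l1, -0.14 to 0.067 for Bcl2a1d, and -0.0078 to 0.20 for Trp53inp1. Scaling by total count alone gave 0.055 for Mcl1 and 0.087 for Bcl2a1d there, and moved the median of all genes by 0.11. Casp6 in pDC against cDC2 gave -0.0083 by total count, -0.0053 by upper quartile, -0.017 with 10 counts in every library, and -0.070 to 0.10 over left-out libraries. The cause of these changes was not tested. Members with low counts, such as Bcl2l1 and Bbc3, had the widest errors.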
